A study of Homo sapiens with 6 samples.

Results

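The factors that carry messenger RNA translation through initiation, elongation and termination were examined as a list of 49 genes, the subunits and partners of eIF1 to eIF6, the eEF1 and eEF2 elongation factors, the release factors and the poly(A)-binding proteins. Each of the 49 symbols matched 1 row of the 60892 rows in the deposited count table, and 48 of them had at least 1 count and enough counts to be tested. The cells were BEAS-2B, wild type by their label, a line of human bronchial epithelium kept in culture. In the ZQ group they were held in ZQ, or Zhenqi Granules, a herbal preparation, at 10 mg/mL for 24 hours, and in the control group they were held in medium for 24 hours. MRSA, methicillin-resistant Staphylococcus aureus, was then added to both groups at 1 bacterium per cell, and RNA was taken 2 hours later from 3 libraries per group. All 6 libraries thus come from cells exposed to bacteria. The labels do not state whether replicate libraries stem from independent cultures, and the p-values therefore reflect variation among libraries that could be technical.

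Translation starts when eIF2, carrying the initiator tRNA, and eIF3 load onto the small ribosomal subunit, and when eIF4E and eIF4G bring in a capped messenger RNA. Elongation then runs on eEF1A, which delivers tRNAs, and eEF2, which moves the ribosome along, until eRF1 and eRF3 release the chain at a stop codon. Cells throttle the process at known points: phosphorylation of eIF2 alpha slows the exchange factor eIF2B, and 4E-BP proteins hold eIF4E away from eIF4G when mTOR signalling is low. These controls act on proteins, which RNA counts do not measure.

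ZQ libraries held 2064566 to 2451746 counts and control libraries 11665967 to 14699677, 5.95 times more on average, and the biological coefficient of variation was 0.522 in ZQ and 0.265 in control libraries. Mitochondrially encoded transcripts took 39.6% ± 1.13 of counts with ZQ and 8.74% ± 1.57 in control cells (SD, n = 3 each), and the part of this difference in the results below was not tested beyond the scalings given. Of 8 epithelial markers 6 were tested, and their summed level was 1788 to 2109.7 CPM in ZQ and 1897 to 3418 CPM in control libraries. It came mostly from KRT8, KRT18, KRT7 and KRT17, while KRT5 had no count in control libraries and EPCAM and CDH1 had at most 6 counts in a ZQ library. Of 5 mesenchymal markers 3 were tested (VIM, FN1 and COL1A1), with a summed level of 1565 to 1847 CPM in ZQ and 1669 to 2287 CPM in control libraries. None of 6 blood cell markers was tested (PTPRC, CD3E, MS4A1, ITGAM and CD68 of leukocytes, and HBB of red cells). CD68 was listed at 0 in all 6 libraries, and the summed level of the 6 was 9.19 to 14.5 CPM in ZQ and 0 to 0.752 CPM in control libraries. HBB held 7, 6 and 0 counts in ZQ libraries 1 to 3. These sums hold members that moved in opposite directions: KRT7 and VIM rose by 1.61 ± 0.20 and 1.71 ± 0.12 on the log2 scale, KRT8, COL1A1 and FN1 fell with log2 changes of -1.24 ± 0.23, -1.79 ± 0.27 and -3.25 ± 0.20, all 5 called in 16 of 16 alternatives, and KRT18 had -0.01 ± 0.14 (SE, adjusted p by edgeR = 2.2e-04, 1.2e-05, 0.0021, 6.7e-04, 3.8e-06 and 0.95). The part of these markers in the results was not tested. In bulk RNA a change in the share of cells and a change in RNA per cell cannot be told apart.

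Levels are given as counts per 1000000 counts (CPM) scaled by TMM factors, and a change is the log2 fold change of ZQ over control from edgeR's quasi-likelihood fit across 12994 genes, called at a Benjamini-Hochberg adjusted p under 0.05. With ZQ 12 of the 48 tested factors rose, 10 fell and 26 did not pass. Of all tested genes 19.3% rose and 19.0% fell, so 38.3% were called, against 45.8% of the factors. The median log2 change of the factors was 0.11 and that of all tested genes 0.03. The groups did not overlap for 29 of the 48 factors, where this held for 53.5% of all tested genes. The factors together took 2.12% ± 0.0195 of nuclear counts with ZQ and 1.64% ± 0.0235 in control cells, but 1.28% ± 0.0358 of all counts with ZQ and 1.50% ± 0.0376 in control cells (SD, n = 3 each). A large part of the difference in nuclear counts came from 1 gene. EEF1A1 alone took 0.547% to 0.598% of nuclear counts in ZQ and 0.237% to 0.280% in control libraries.

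A pair of properties bear on every factor. Changes followed the GC content of transcripts, so a second fit took out smooth trends with GC content and transcript length in each library (GC and length offsets). With these offsets 18 factors were higher and 6 lower, where 18.5% of all tested genes were higher and 14.8% lower. Of the 22 factors called without offsets, 11 passed in the same direction with them, and 2, EIF4EBP1 and EIF4A2, passed in the opposite direction. The other property is scaling: upper-quartile scaling moved the median change of all genes by 0.45, nuclear library totals by 0.23 and library totals by -0.38 on the log2 scale. By upper quartiles 22 factors were higher and 5 lower, with 29.0% and 12.4% of all genes. By nuclear totals 18 were higher and 7 lower, with 24.4% and 15.1% of all genes. By library totals 8 were higher and 17 lower, with 13.7% and 27.0% of all genes. With no filter on low counts 8 were higher and 18 lower, with 20.8% and 9.54% of all rows. Those last 2 shares are over 38214 rows with any count, against 12994 genes with the filter. They are therefore not over like genes, and the factors cannot be set against them directly. Without control replicate 1 the counts were 11 higher and 4 lower (12.6% and 12.9% of all genes), and without control replicate 3 they were 13 and 5 (13.9% and 13.8%). The 8 factors called the same way in all 16 alternatives were EIF1, EEF1A1, EEF1B2 and PABPC4, which rose, and EIF4G2, EIF4H, EIF3C and EIF3L, which fell.

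**Figure D1:**
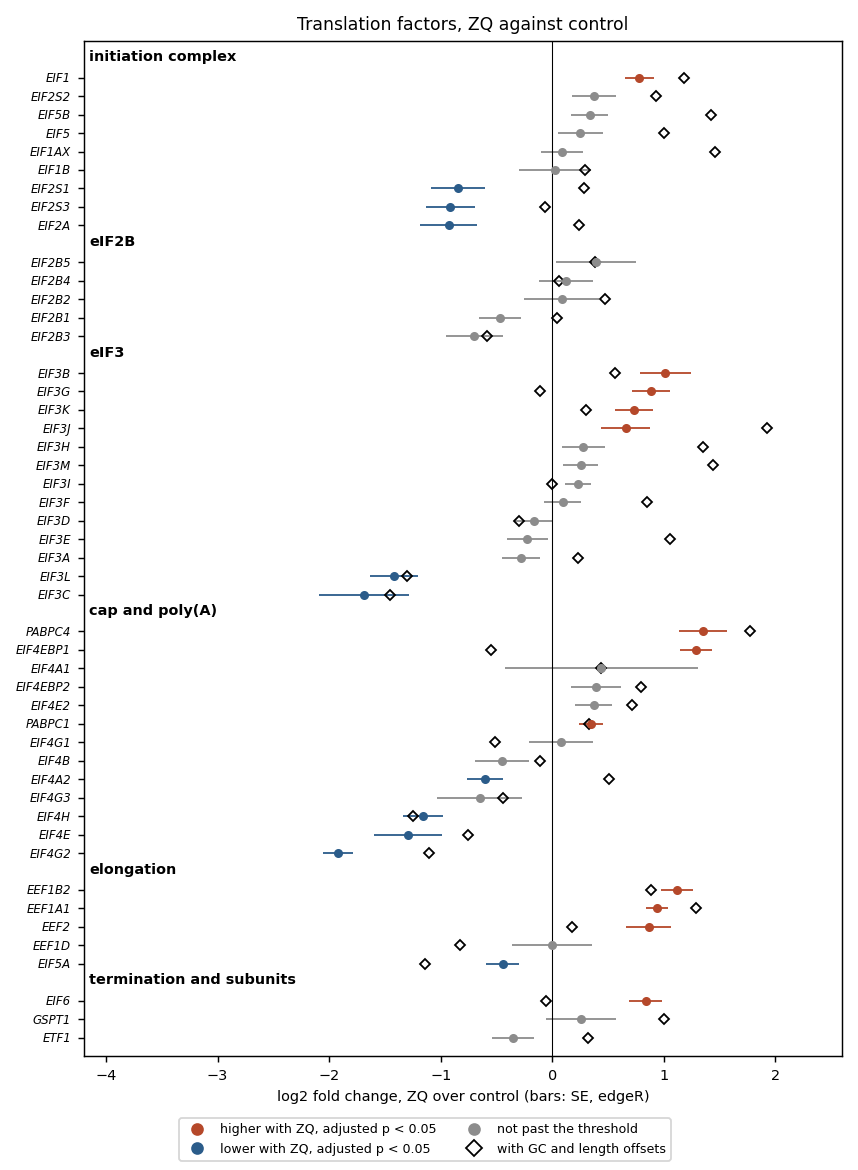
Log2 fold change of ZQ over control for the 48 tested factors, ordered by role, with SE bars from the edgeR fit (circles) and the value with GC and length offsets (open diamonds). Colour marks the 12 factors higher and 10 lower with ZQ; EIF4EBP1 and EIF4A2 are the 2 of these 22 whose diamond lies past the threshold on the other side of 0, as does that of EIF3E, which is not called without offsets, and EIF5A and PABPC1 change sign under upper-quartile scaling (0.0020) and library totals (-0.037).

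Elongation factor transcripts rose for 3 of 5 tested members and fell for 1, where 19.3% of all tested genes rose and 19.0% fell. With offsets 2 were higher and 1 lower. EEF1A1, which encodes eEF1A, the carrier of aminoacyl-tRNA, stood at 3942, 4204 and 3810.4 CPM in ZQ libraries 1 to 3, against 2102, 2221 and 1917 CPM in control libraries 1 to 3. Every ZQ library lay well above every control library. The log2 change of EEF1A1 was 0.94 ± 0.10 (SE, adjusted p by edgeR = 8.8e-05), or 1.29 with offsets and 0.80 to 1.08 when any 1 library was left out. In GRCh38 coordinates EEF1A1 spans chromosome 6, 73515750 to 73523797, and 39 annotated pseudogenes carry its name, so reads may be shared with them. Per length EEF1A1 was among the 2 most abundant factors in both groups, at 670.1 CPM per kb with ZQ and 349.7 CPM per kb in control cells, with EIF4EBP1 at 832 CPM per kb with ZQ and 339.9 CPM per kb in control cells. The length is that of all annotated exon bases, 5948 for EEF1A1 and 1073 for EIF4EBP1, and the order depends on it. By CPM alone EIF4EBP1 averaged 893 with ZQ, below EEF1A1.

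EEF1B2, a subunit of the exchange complex that recharges eEF1A with GTP, stood at 419, 517 and 454 CPM in ZQ libraries 1 to 3, against 219, 209 and 213 CPM in control libraries 1 to 3. Here too the groups were apart, and the controls lay within a narrow range. Its log2 change was 1.12 ± 0.14 (SE, adjusted p by edgeR = 2.7e-04), or 0.88 with offsets. EEF2, the translocase, stood at 429, 358 and 397 CPM in ZQ libraries 1 to 3, against 179.9, 291 and 180.0 CPM in control libraries 1 to 3. Control library 2 was the highest of the controls, and still below every ZQ library. The log2 change of EEF2 was 0.86 ± 0.20 (SE, adjusted p by edgeR = 0.0075), but the call ended with offsets (0.17) and by library totals (0.48).

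EIF5A, the hypusine-bearing factor that helps ribosomes through difficult stretches, went the other way, at 264, 259.8 and 248 CPM in ZQ libraries 1 to 3, against 306, 391 and 355 CPM in control libraries 1 to 3. The ZQ libraries were close together and below all controls. Its log2 change was -0.44 ± 0.15 (SE, adjusted p by edgeR = 0.035), which passed in 6 of 16 alternatives: it ended without any 1 of the control libraries (-0.40, -0.27 and -0.30 without replicates 1, 2 and 3), was 0.0020 with upper-quartile scaling and was -1.14 with offsets. EEF1D, another exchange subunit, held 44, 59 and 40 counts in ZQ and 355, 548 and 248 counts in control libraries, with a log2 change of 0.00 ± 0.36 (SE, adjusted p by edgeR = 1). For EEF1D 3492 of its 9390 exon bases also carry genes annotated on the opposite strand. EEF1G, the remaining exchange subunit, was listed at 0 in all 6 libraries. A count of 0 allows up to 3 counts, or 1.22 to 1.45 CPM in a ZQ and 0.204 to 0.257 CPM in a control library by library totals, for counting error only. Of the 2716 exon bases of EEF1G 2714 also belong to the gene AP002990.1 on the same strand, but no source used here says how reads on both were counted.

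Many elongation and some initiation factors are known to be made from TOP messenger RNAs, which begin with a C followed by a run of C and U (5′ terminal oligopyrimidine tract) and whose translation follows mTOR signalling. Of the listed factors 10 are textbook TOP genes: EEF1A1, EEF1B2, EEF1D, EEF1G, EEF2, EIF3E, EIF3F, EIF3H, EIF4B and PABPC1. Of the 9 tested, 4 rose (EEF1A1, EEF1B2, EEF2 and PABPC1) and 0 fell in the edgeR fit, with a median log2 change of 0.28 over the 9. Without ZQ replicate 1 EIF4B was called lower (-0.80). Of the 39 other tested factors 8 rose and 10 fell, with a median of 0.09. Of all tested genes 19.3% rose and 19.0% fell. In either direction 44.4% of the 9, 46.2% of the 39 and 38.3% of all tested genes were called. With offsets 6 of the 9 were higher and 0 lower (median 0.84), and by library totals 2 were higher and 2 lower. Of the 39 others 12 were higher and 6 lower with offsets (median 0.28). The shares of all tested genes were 18.5% higher and 14.8% lower with offsets, and 13.7% and 27.0% by library totals. TPT1, a further TOP gene that encodes translationally controlled tumour protein, stood at 901, 847 and 949 CPM in ZQ libraries 1 to 3, against 190.0, 165 and 212 CPM in control libraries 1 to 3, a log2 change of 2.25 ± 0.14 (SE, adjusted p by edgeR = 4.8e-06) and 2.79 with offsets.

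The bases around the RefSeq start (GRCh38.p14) are shown for 5 factors with such a tract and 3 without, 10 bases before to 20 bases from the start on, with the longest run of C and T in capitals and the start at base 11. The first 3 are TOP genes, of which EEF1A1 and EEF2 rose and EIF3F was not called. EIF2S3 and EIF2A carry a tract of the same kind and fell. EIF4G2 and EIF4E fell and EIF1 rose without one at the start base. For EIF4G2 this rests on the annotated start, as a run of 7 C or T begins 1 base after it. Of the TOP genes with a RefSeq start that are not shown, EIF4B has a tract, while EEF1B2, which rose, and EEF1G have none.
EEF1A1 (chr6:73521013-73521042, minus strand): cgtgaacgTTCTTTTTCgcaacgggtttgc
EEF2 (chr19:3985444-3985473, minus strand): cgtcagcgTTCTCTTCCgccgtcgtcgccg
EIF3F (chr11:7987327-7987356, plus strand): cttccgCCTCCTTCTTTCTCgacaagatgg
EIF2S3 (chrX:24054946-24054975, plus strand): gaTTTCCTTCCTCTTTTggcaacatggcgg
EIF2A (chr3:150546777-150546806, plus strand): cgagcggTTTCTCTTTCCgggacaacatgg
EIF4G2 (chr11:10807977-10808006, minus strand): tgtcggaagcaCTTCCCTaacttgcgcctg
EIF4E (chr4:98929114-98929143, minus strand): tggagcggttgtgcgatcagatcgaTCTaa
EIF1 (chr17:41688875-41688904, plus strand): ccgCCCCTCTgccccagtcactgagccgcc

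A promoter entry was matched for 39 factors. In these, 10 started with C followed by at least 4 C or T on the sense strand, the only strand searched, which is 25.6% against 4.04% of 27305 promoters. The 25.6% includes TOP genes, which are known for this trait. The motif was found in 4 of 6 TOP genes with an entry, and in 6 of the 33 other factors, or 18.2%. A run of at least 8 C or T in the 30-base window, which can overlap the first motif, was found in 11 of the 39, or 28.2%, and in 12.6% of all promoters. Of the 10 with the start motif, EIF3K, EEF1A1 and EEF2 rose, EIF2A, EIF2S3 and EIF4A2 fell, and EIF3D, EIF3F, EIF3M and EIF4B were not called. The motif is thus found among factors of either direction, and a match is a description of these letters only.

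Among the factors that recognise the cap and the poly(A) tail, 3 of 13 rose and 4 fell, where 19.3% of all tested genes rose and 19.0% fell. With offsets 5 were higher and 3 lower. EIF4G2, which encodes the eIF4G relative DAP5 that lacks the eIF4E-binding part, stood at 499, 405 and 489 CPM in ZQ libraries 1 to 3, against 1813, 1924 and 1539 CPM in control libraries 1 to 3. No ZQ library came near the lowest control. The log2 change of EIF4G2 was -1.92 ± 0.13 (SE, adjusted p by edgeR = 9.7e-06), 3.79-fold lower, -1.10 with offsets and -2.07 to -1.76 with any 1 library left out. It spans chromosome 11, 10797050 to 10809110. The canonical scaffold EIF4G1 stood at 201, 153 and 202 CPM in ZQ libraries 1 to 3, against 149.7, 264 and 111 CPM in control libraries 1 to 3, and control library 2 was far above the other controls, so the groups overlapped. Its log2 change was 0.08 ± 0.29 (SE, adjusted p by edgeR = 0.84), and 0.59 without control replicate 2. EIF4G3, the other scaffold, had a log2 change of -0.65 ± 0.38 (SE, adjusted p by edgeR = 0.2).

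EIF4E, the cap-binding protein gene, stood at 48.8, 45.5 and 103 CPM in ZQ libraries 1 to 3, against 177, 135 and 171 CPM in control libraries 1 to 3. ZQ library 3 was above the other ZQ libraries and nearest to the controls, and the groups did not overlap. EIF4E fell, with a log2 change of -1.29 ± 0.31 (SE, adjusted p by edgeR = 0.0078), a call that ended with offsets (-0.76) and without control replicate 1 (-1.09), and the change was -1.86 without ZQ replicate 3. EIF4EBP1, which encodes the eIF4E inhibitor 4E-BP1, stood at 922, 941 and 816 CPM in ZQ libraries 1 to 3, against 347, 320.0 and 427 CPM in control libraries 1 to 3. All ZQ libraries were far above all controls. EIF4EBP1 rose by 1.29 ± 0.14 (SE, adjusted p by edgeR = 1.3e-04) on the log2 scale, past the threshold in 15 of 16 alternatives, and with offsets it was lower instead (-0.55). Its GC content, 65.5%, is the highest of the 49 factors, and the 524 tested protein-coding genes within 2 percentage points of it had a median log2 change of 1.41. The relatives EIF4EBP2 and EIF4E2 had log2 changes of 0.39 ± 0.22 and 0.37 ± 0.17 (SE, adjusted p by edgeR = 0.19 and 0.1). Both were called higher with offsets, at 0.79 and 0.72.

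EIF4H and EIF4B both stimulate the eIF4A helicase. EIF4H (chromosome 7, 74174245 to 74197101) stood at 192, 153 and 207 CPM in ZQ libraries 1 to 3, against 392, 489 and 351 CPM in control libraries 1 to 3. Its groups were apart, with control library 2 the highest of all. EIF4H fell with a log2 change of -1.16 ± 0.18 (SE, adjusted p by edgeR = 7.4e-04), and -1.25 with offsets. EIF4B had a log2 change of -0.45 ± 0.24 (SE, adjusted p by edgeR = 0.16), and was called lower without ZQ replicate 1 (-0.80). EIF4A2, a helicase gene, fell to 141 ± 6.07 CPM with ZQ, against 215 ± 20.5 CPM in control cells (mean ± SD, n = 3 each). The log2 change of EIF4A2 was -0.61 ± 0.16 (SE, adjusted p by edgeR = 0.013). That call ended without control replicate 1 (-0.46), without control replicate 3 (-0.41), with upper-quartile scaling (-0.16), by nuclear totals (-0.38) and with controls thinned to ZQ depth (-0.39). With offsets EIF4A2 was called higher (0.51), so 10 of 16 alternatives called it lower. EIF4A1, the helicase usually dominant in dividing human cells, held only 0, 4 and 4 counts in ZQ and 16, 22 and 9 counts in control libraries, with a log2 change of 0.44 ± 0.87 (SE, adjusted p by edgeR = 0.71). Of its 5316 exon bases 4186 are shared with other genes on the same strand, among them the joined transcript SENP3-EIF4A1. The rows of these genes held few reads too. SENP3-EIF4A1 held 1, 8 and 1 counts in ZQ and 0, 0 and 1 in control libraries. AC016876.2 held 0, 0 and 3 in ZQ and 0 in each control library, and SNORA48, SNORD10 and SNORA67 were at 0 in all 6 libraries. No source used here says how reads on shared bases were counted.

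Both listed poly(A)-binding protein genes rose, though PABPC1 stood at -0.037 by library totals. PABPC4 (chromosome 1, 39560816 to 39576790) stood at 138, 115 and 148 CPM in ZQ libraries 1 to 3, against 50.9, 45.7 and 60.1 CPM in control libraries 1 to 3, with no overlap between groups, and its log2 change of 1.35 ± 0.21 (SE, adjusted p by edgeR = 8.3e-04) was the largest rise of the list without offsets, and with offsets it was 1.77, where EIF3J stood at 1.92. PABPC1, the main cytoplasmic form, stood at 923, 929.8 and 906 CPM in ZQ libraries 1 to 3, against 734, 755 and 679.5 CPM in control libraries 1 to 3. The ZQ libraries agreed closely and lay above all controls by a modest margin. Its log2 change was 0.35 ± 0.11 (SE, adjusted p by edgeR = 0.029), and the call ended without any 1 of the ZQ libraries (0.25, 0.24 and 0.27 without replicates 1, 2 and 3) and with no filter on low counts (0.036).

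**Figure D2:**
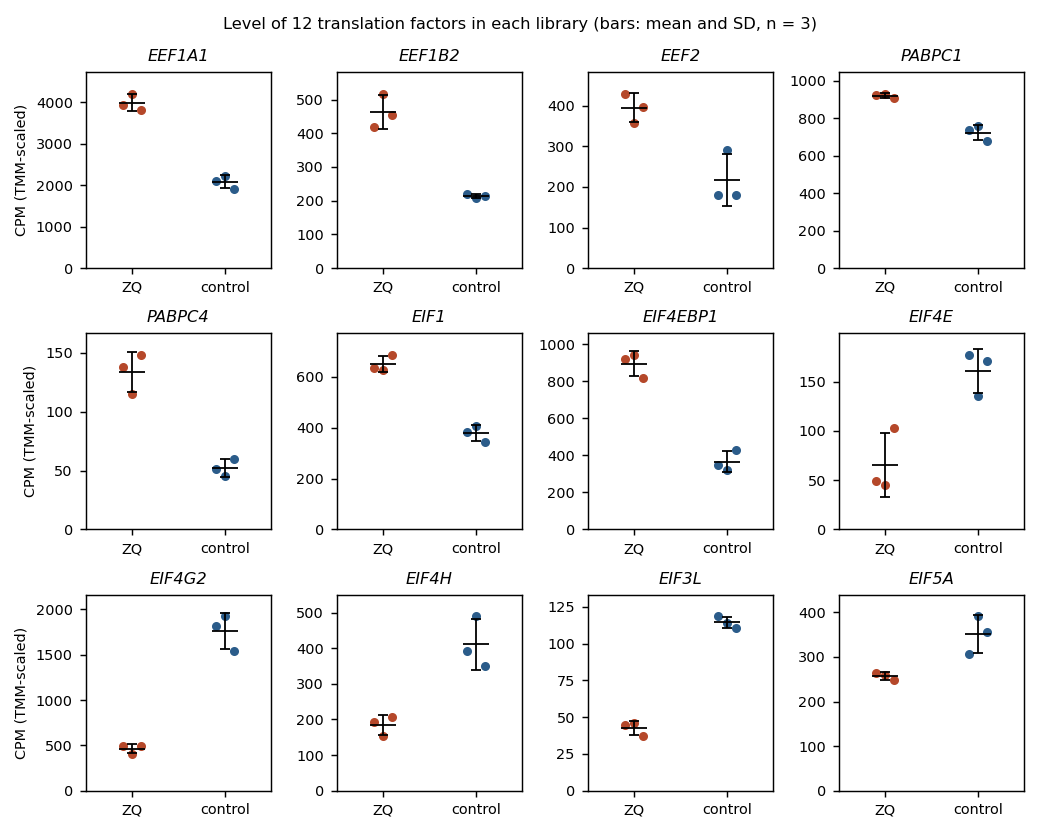
TMM-scaled CPM of 12 factors in each of the 3 ZQ and 3 control libraries, with the mean and SD of each group, each panel with its own axis from 0. EEF1A1, EEF1B2, EEF2, PABPC1, PABPC4, EIF1 and EIF4EBP1 are higher with ZQ and EIF4E, EIF4G2, EIF4H, EIF3L and EIF5A lower, with no overlap of the groups in any panel; under other scalings PABPC1 (library totals, -0.037) and EIF5A (upper quartile, 0.0020) lie at about 0 on the other side.

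In the complex that finds the start codon, 1 of 9 members rose and 3 fell, where 19.3% of all tested genes rose and 19.0% fell. With offsets 5 of the 9 were higher and 0 lower (median 0.93), where 18.5% of all tested genes were higher and 14.8% lower. EIF1, which keeps the scanning ribosome from starting at the wrong codon, stood at 635, 626 and 685 CPM in ZQ libraries 1 to 3, against 384, 406 and 343 CPM in control libraries 1 to 3. The ZQ libraries were all above the controls. EIF1 rose by 0.78 ± 0.13 (SE, adjusted p by edgeR = 9.5e-04) on the log2 scale and by 1.18 with offsets. Its near-copy EIF1B had a log2 change of 0.02 ± 0.32 (SE, adjusted p by edgeR = 0.96), and EIF1AX, which acts beside EIF1, one of 0.08 ± 0.19 (SE, adjusted p by edgeR = 0.75). EIF1AX was called higher with offsets (1.46).

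The subunits of eIF2 did not move together. EIF2S1, the alpha subunit that stress kinases phosphorylate, stood at 179, 171 and 313 CPM in ZQ libraries 1 to 3, against 423, 321 and 447 CPM in control libraries 1 to 3. ZQ library 3 came close to the lowest control without reaching it. EIF2S3, the gamma subunit that binds GTP and the initiator tRNA, stood at 301, 312 and 212 CPM in ZQ libraries 1 to 3, against 551, 368 and 634 CPM in control libraries 1 to 3, again without overlap. EIF2S1 and EIF2S3 fell with log2 changes of -0.84 ± 0.24 and -0.91 ± 0.22 (SE, adjusted p by edgeR = 0.018 and 0.0084). The beta subunit EIF2S2 averaged 585 ± 104 CPM with ZQ, against 450.0 ± 107 CPM in control cells (mean ± SD, n = 3 each), with overlapping groups and a log2 change of 0.38 ± 0.20 (SE, adjusted p by edgeR = 0.16). EIF2S2 was called higher in 5 of 16 alternatives, among them without control replicate 3 (0.67) and with offsets (0.93). EIF2A, a separate tRNA-binding factor, stood at 53.2, 89.0 and 53.0 CPM in ZQ libraries 1 to 3, against 136, 106 and 131 CPM in control libraries 1 to 3, without overlap. EIF2A fell with a log2 change of -0.93 ± 0.25 (SE, adjusted p by edgeR = 0.016). All 3 falls ended with offsets (0.28 for EIF2S1, -0.07 for EIF2S3 and 0.24 for EIF2A) and without control replicate 1 or 3: EIF2S1 was -0.67 and -0.62, EIF2S3 -0.75 and -0.62, and EIF2A -0.73 and -0.76. They also ended with upper-quartile scaling (-0.41 for EIF2S1, -0.47 for EIF2S3 and -0.48 for EIF2A). EIF2S1 was called in 9 of 16 alternatives and also lost its call by nuclear totals (-0.61), at a mean of at least 5 CPM (-0.67) and with controls thinned to ZQ depth (-0.62), whereas EIF2S3 and EIF2A were each called in 12 of 16. Without ZQ replicate 3 the change of EIF2S1 was -1.27.

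EIF5, the GTPase activator of eIF2, and EIF5B, which joins the ribosomal subunits, had log2 changes of 0.25 ± 0.20 and 0.34 ± 0.16 (SE, adjusted p by edgeR = 0.34 and 0.13). EIF5B stood at 347, 255 and 283 CPM in ZQ libraries 1 to 3, against 246, 208 and 247 CPM in control libraries 1 to 3. Its ZQ libraries lay just above the controls. With offsets EIF5B and EIF5 were called higher, at 1.42 and 1.00.

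None of the 5 genes of eIF2B, the exchange factor that reloads eIF2 with GTP, passed the threshold. EIF2B5, the catalytic epsilon subunit, stood at 28.0, 35.8 and 48.6 CPM in ZQ libraries 1 to 3, against 21.3, 27.6 and 36.8 CPM in control libraries 1 to 3, with a log2 change of 0.39 ± 0.36 (SE, adjusted p by edgeR = 0.42). EIF2B3, the gamma subunit, stood at 46.6, 63.4 and 48.6 CPM in ZQ libraries 1 to 3, against 98.5, 66.9 and 92.0 CPM in control libraries 1 to 3, with no overlap. It came nearest to a call, at a log2 change of -0.70 ± 0.26 (SE, adjusted p by edgeR = 0.053), and passed as lower without ZQ replicate 2 (-0.95) and without control replicate 2 (-0.77). The alpha, beta and delta subunit genes EIF2B1, EIF2B2 and EIF2B4 had log2 changes of -0.47, 0.09 and 0.12, with EIF2B1 called lower without ZQ replicate 3 (-0.62). With offsets none of the 5 was called either. Their depth was modest, at 212 to 578 counts per gene over the 3 ZQ libraries.

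The 13 subunits of eIF3, the scaffold on the small ribosomal subunit, split: 4 rose, 2 fell and 7 did not pass, with changes from -1.69 to 1.01. Of all tested genes 19.3% rose and 19.0% fell. With offsets 5 subunits were higher and 2 lower. EIF3B, a core subunit, stood at 160.2, 243 and 142 CPM in ZQ libraries 1 to 3, against 88.1, 82.7 and 99.2 CPM in control libraries 1 to 3. ZQ library 2 was the highest, and the groups were apart. EIF3B rose by 1.01 ± 0.23 (SE, adjusted p by edgeR = 0.0057) on the log2 scale, or 0.65 without ZQ replicate 2, and its call ended with offsets (0.56). EIF3G, which binds RNA, and EIF3K, a peripheral subunit, rose by 0.88 ± 0.17 and 0.73 ± 0.17 (SE, adjusted p by edgeR = 0.0025 and 0.007), and both calls ended with offsets (-0.11 and 0.30) and with no filter on low counts (0.57 and 0.42), that of EIF3K also by library totals (0.35). EIF3G stood at 172, 193 and 184 CPM in ZQ libraries 1 to 3, against 102, 106 and 88.9 CPM in control libraries 1 to 3. EIF3K stood at 173, 199 and 186 CPM in ZQ libraries 1 to 3, against 102, 112 and 123 CPM in control libraries 1 to 3. For both genes the ZQ libraries were tight and above the controls. EIF3J, a loosely bound subunit, rose by 0.66 ± 0.22 (SE, adjusted p by edgeR = 0.036) on the log2 scale, a call lost without ZQ replicate 1 (0.59), ZQ replicate 3 (0.40), control replicate 1 (0.77) or control replicate 2 (0.70) and with the replicate block (0.64), by library totals (0.28) and with no filter on low counts (0.35). It was called in 9 of 16 alternatives, and stood at 1.92 with offsets.

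EIF3L (chromosome 22, 37848868 to 37889407), a peripheral subunit, stood at 45.0, 46.0 and 37.4 CPM in ZQ libraries 1 to 3, against 119, 114 and 111 CPM in control libraries 1 to 3. The 6 libraries formed narrow groups far from each other. EIF3L fell with a log2 change of -1.42 ± 0.21 (SE, adjusted p by edgeR = 6.7e-04), and -1.30 with offsets. On the same strand 1767 of its 4296 exon bases are shared with AL022311.1, which held 22, 38 and 32 counts in ZQ and 22, 24 and 15 counts in control libraries, so the reads of both may have been split. EIF3C, whose row held 34, 22 and 15 counts in ZQ and 571, 821 and 450 counts in control libraries, fell with a log2 change of -1.69 ± 0.40 (SE, adjusted p by edgeR = 0.008). EIF3C has a near-identical neighbour, EIF3CL, which held 22, 12 and 12 counts in ZQ and 126, 150 and 99 counts in control libraries with a log2 change of -0.03 ± 0.51 (SE), so reads may have been split between them. Neither EIF3A, the largest core subunit, nor EIF3E, passed: EIF3A stood at 266, 295 and 199 CPM in ZQ libraries 1 to 3, against 314, 282 and 325 CPM in control libraries 1 to 3, with a log2 change of -0.28 ± 0.17, and EIF3E, a further subunit, had -0.23 ± 0.18 (SE, adjusted p by edgeR = 0.23 and 0.36). The subunit genes EIF3D, EIF3F, EIF3H, EIF3I and EIF3M stood between -0.17 and 0.28. With offsets EIF3E, EIF3F, EIF3H, EIF3J and EIF3M were called higher, at 0.84 to 1.92, and each of these 5 has a GC content of at most 40.6%.

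Of the factors that end translation or keep subunits apart, only EIF6 was called. EIF6, which holds the large ribosomal subunit in a free state, stood at 347, 314 and 281 CPM in ZQ libraries 1 to 3, against 179, 168 and 180.2 CPM in control libraries 1 to 3. The groups were clearly apart. EIF6 rose, with a log2 change of 0.84 ± 0.15 (SE, adjusted p by edgeR = 0.0015), a call that ended with offsets (-0.06). ETF1, which encodes the stop-codon reader eRF1, stood at 162, 110.3 and 143 CPM in ZQ libraries 1 to 3, against 185, 164 and 182 CPM in control libraries 1 to 3. The groups lay side by side without overlap. The log2 change of ETF1 was -0.35 ± 0.19 (SE, adjusted p by edgeR = 0.16), with a call as lower without ZQ replicate 1 (-0.58). GSPT1, which encodes its GTPase partner eRF3a, stood at 54.9, 139 and 111 CPM in ZQ libraries 1 to 3, against 73.9, 80.9 and 101 CPM in control libraries 1 to 3. ZQ libraries 1 and 2 lay on opposite sides of the controls, and the log2 change was 0.26 ± 0.31 (SE, adjusted p by edgeR = 0.54). With offsets GSPT1 was called higher (1.00).

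For 6 pairs, factors were compared within each library as a difference in log2 CPM, which sets aside the scaling of whole libraries but not gene properties such as GC content. EIF4EBP1 minus EIF4E was 3.86 ± 0.76 with ZQ and 1.18 ± 0.19 in control libraries (SD, n = 3 each), a shift of 2.68. EIF4G2 minus EIF4G1 was 1.33 ± 0.06 with ZQ and 3.41 ± 0.49 in control libraries (SD, n = 3 each), a shift of -2.09. EIF1B minus EIF1 was -4.41 ± 0.36 with ZQ and -3.63 ± 0.14 in control libraries (SD, n = 3 each), a shift of -0.78. In each of these 3 pairs the ZQ and control libraries were fully apart. The exact permutation test (two-sided) gave 0.1, which is the lowest p possible for groups of 3, and 0.2 after Benjamini-Hochberg adjustment over 6 pairs. The pairs were not run with offsets. With offsets EIF4EBP1 and EIF4E had log2 changes of -0.55 and -0.76, EIF4G2 and EIF4G1 -1.10 and -0.51, and EIF1B and EIF1 0.30 and 1.18. Tested protein-coding genes within 2 percentage points of GC had median log2 changes of 1.41 for EIF4EBP1 and -0.92 for EIF4E. The part of GC content in these shifts was not tested. EEF1B2 minus EEF1A1, GSPT1 minus ETF1 and EIF4A2 minus EIF4A1 shifted by 0.17, 0.54 and -0.41, with exact permutation p of 0.2, 0.5 and 0.8 (adjusted 0.3, 0.6 and 0.8), and the last rests on the few counts of EIF4A1.

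**Figure D3:**
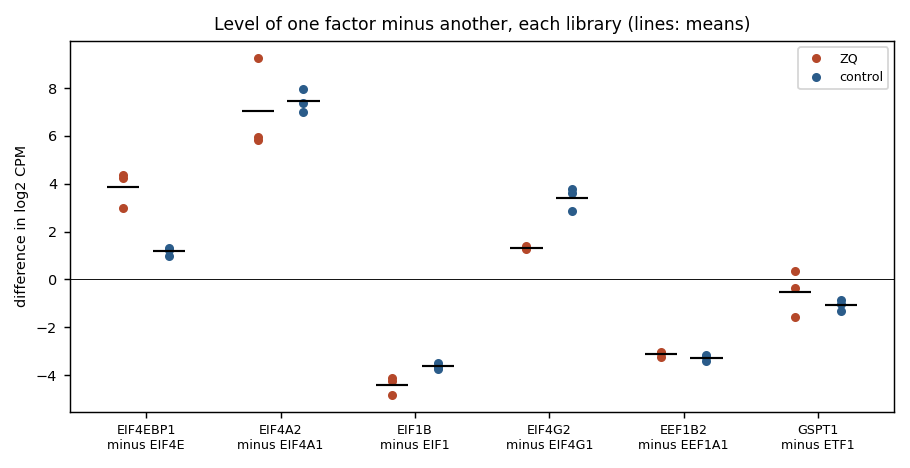
Difference in log2 CPM between 2 factors in each library, for 6 pairs, with ZQ left of control and lines at the means of 3 libraries. ZQ and control points are apart for EIF4EBP1 minus EIF4E, EIF1B minus EIF1 and EIF4G2 minus EIF4G1, with shifts of 2.68, -0.78 and -2.09, all without GC and length offsets.

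Across the 11514 tested protein-coding genes the Spearman correlation of log2 change with GC content was 0.495, and across the 48 factors 0.315; genes share the same 6 libraries and are not replicates. Genes were put in 5 bins of equal number by GC content. In the bin of protein-coding genes lowest in GC the median log2 change was -0.93, and the 12 factors in that range had a median of -0.07. In the bin highest in GC the median was 0.99 over genes and 0.86 over 5 factors. With offsets the correlation was -0.0179 over genes and -0.535 over the factors, so for these factors the offsets left a trend of the opposite sign.

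Set against tested protein-coding genes within 2 percentage points of GC, several factors stood away from the median of their neighbours. EEF1A1 at 0.94 and PABPC4 at 1.35 compare with medians of -0.29 and -0.29, and EIF4G2 at -1.92 and EIF3L at -1.42 with medians of -0.82 and 0.00. EEF2 at 0.86, EIF3G at 0.88 and EIF2S1 at -0.84 lay near theirs, which were 0.82, 0.86 and -0.90.

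**Figure D4:**
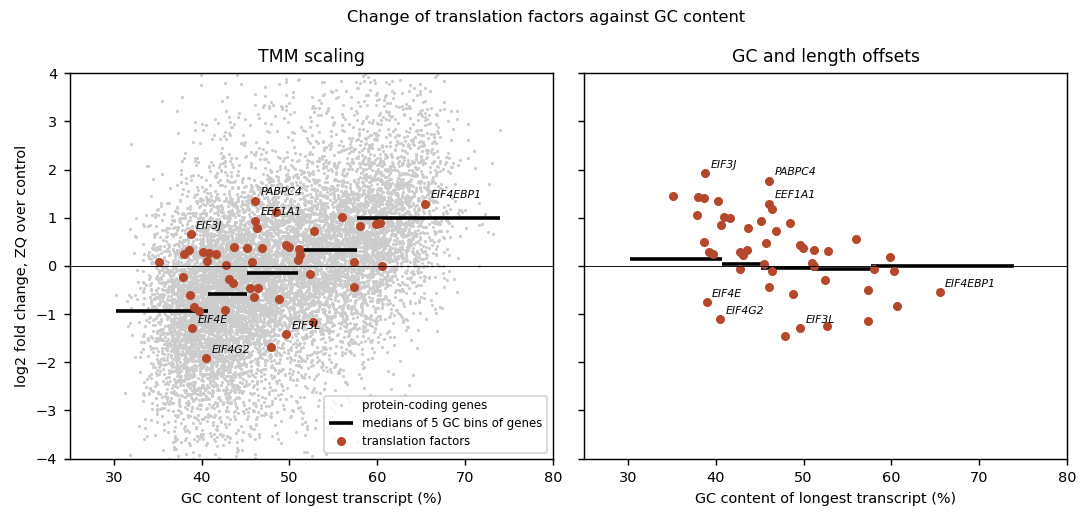
Log2 fold change of ZQ over control against the GC content of the longest transcript, for the 48 tested factors (red) and protein-coding genes (grey, left panel; 620 genes beyond a log2 change of 4 are not drawn), with TMM scaling on the left and GC and length offsets on the right. Black lines, the medians of 5 bins of genes by GC content, lie at -0.93 in the lowest and 0.99 in the highest bin on the left and lie near 0 on the right, where EIF4EBP1 is below 0.

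Genes around the factors, chosen as regulators, modifying enzymes and relatives, gave 6 higher and 10 lower of 38 tested out of 40 (42.1%), a median log2 change of -0.23, and 8 higher and 4 lower with offsets. Without control replicate 1, as without control replicate 3, 2 were higher and 8 lower, and without ZQ replicate 3 3 were higher and 13 lower. DDX3X, a helicase of long structured leaders, fell to 162 ± 44.6 CPM with ZQ, against 635 ± 56.6 CPM in control cells (mean ± SD, n = 3 each). The log2 change of DDX3X was -1.97 ± 0.20 (SE, adjusted p by edgeR = 8.0e-05). HBS1L, which rescues stalled ribosomes, and ABCE1, which recycles them, fell with log2 changes of -1.98 ± 0.30 and -1.23 ± 0.19 (SE, adjusted p by edgeR = 6.7e-04 and 7.5e-04), and the call of ABCE1 ended with offsets (0.01). RPS6KB1, the mTOR effector kinase S6K1, fell with a log2 change of -2.28 ± 0.37 (SE, adjusted p by edgeR = 9.0e-04), and MKNK2, which encodes an eIF4E kinase, rose by 2.72 ± 0.43 (SE, adjusted p by edgeR = 8.3e-04) on the log2 scale. With offsets the calls of DDX3X, HBS1L, RPS6KB1 and MKNK2 held, but the changes were smaller, at -1.08, -0.93, -1.14 and 1.60. MTOR and LARP1, a repressor of TOP messenger RNAs, had log2 changes of -0.44 ± 0.46 and 0.24 ± 0.21 (SE, adjusted p by edgeR = 0.48 and 0.38). PDCD4, an eIF4A inhibitor, had a log2 change of -1.61 ± 0.61 (SE, adjusted p by edgeR = 0.06); it held 8, 18 and 65 counts in the ZQ libraries, and was called lower without ZQ replicate 3 (-3.01). EEF2K, the kinase of eEF2, held 0, 1 and 5 counts in ZQ and 5, 61 and 18 counts in control libraries, too few to place it.

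Background reads were gauged on 381 olfactory receptor genes, a family known from the nose. They held 1.50 counts per kb of exon over the ZQ libraries and 0.167 over the control libraries, and their 99th percentile per gene with ZQ was 16.0. Of the 49 factors 45 held more ZQ counts per kb than that percentile, and EIF3C, EIF4A1, EEF1D and EEF1G did not. These densities are not scaled for depth, although control libraries held 5.95 times more counts on average. At least 1 count was listed for 23836 to 24713 rows in ZQ libraries, against 19400 to 21141 in control libraries. What gave this higher background with ZQ was not tested, and it limits low ZQ values most.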

How the data were processed

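RNA of 3 ZQ and 3 control libraries of BEAS-2B cells was sequenced. As deposited, the authors' table gives whole-number, unnormalised read counts for 60892 gene rows in 6 libraries. The submitters' processing notes name GRCh38 as genome build and Cufflinks 2.1.1 as a tool without saying what it did. An aligner, counter, annotation or strand setting is not given in the sources used here. Reads of overlapping, antisense or near-identical genes therefore cannot be told apart. Of the rows 228 carry other IDs and took 0.127 to 0.161% of counts in ZQ and 0.0906 to 0.114% in control libraries.

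The count model was edgeR 4.0.16 in R 4.3.3 with TMM scaling and the quasi-likelihood F-test. Low rows were dropped by filterByExpr (count of 10, total of 15), p-values were adjusted by Benjamini-Hochberg across the 12994 genes left, and an adjusted p under 0.05 was a call. The SE is the size of the log2 change divided by the root of F. Offsets were smooth curves in GC content and length of the longest transcript, fitted per library with mgcv 1.9.3 on GENCODE annotation of GRCh38. Alternatives were DESeq2 1.42.0, other scalings and filters, thinned controls, these offsets, a replicate block and fits that each omit 1 library. Pairs of factors were compared as log2 CPM with a prior count of 2. Start windows came from RefSeq (GRCh38.p14), matched by symbol. The fit was tested on simulated data.

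Every factor could be named. Key factors, whatever their value, were given with values per library, a group mean or only a log2 change. The same holds for up to 4 factors with the smallest adjusted p in each role. Of the other translation genes it holds for 5 whatever their value and for the 6 with the smallest adjusted p. EIF1AX, EIF1B, EIF2S2, EIF3C, EIF3CL, EIF3J, EIF4A2 and EEF1D were given in more detail after their values were seen. The factors and all gene lists were chosen with earlier results of these data known. Counting intervals and floors cover counting error only.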

Additional observations from a re-analysis of the deposited data

How the results depend on the processing

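The direction and call of each named gene were compared under 16 alternatives, and the pairs under 8. Of 917 gene values under alternatives, 731 kept direction and side of the threshold, 65 newly passed, 47 no longer passed and 74 had the opposite sign, and where no construction of the alternative shows it the cause was not tested. With any 1 library left out the factors gave 10 to 13 higher and 4 to 12 lower, TOP factors 3 to 4 higher and 0 to 1 lower, the other translation genes 10 to 16 in all, 2 to 4 higher and 8 to 13 lower, and all genes 2815 to 5407, of which 1389 to 2536 higher and 1426 to 2871 lower. With upper-quartile scaling 22 factors were higher and 5 lower, 11 other translation genes were higher, and 3767 of all genes were higher and 1611 lower. By library totals 17 factors were lower, 2 TOP factors were higher and 2 lower, and 16 other translation genes were lower. With no low-count filter 18 factors and 2 TOP factors were lower, and 11603 of 38214 rows were called, 7957 of them higher. With a mean of at least 5 CPM 1668 of all genes were higher. With GC and length offsets 6 factors and 4 other translation genes were lower. DESeq2 called 14 factors higher and 9 lower.

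The median log2 change of the factors was 0.55 with upper quartiles, -0.27 by library totals, 0.32 by nuclear totals, -0.20 with no filter, 0.26 at a mean of at least 5 CPM, 0.31 with controls thinned to ZQ depth, 0.30 with offsets and 0.036 to 0.28 with a library left out. EIF4A2 minus EIF4A1 was 0.097 with a prior count of 0.5 and -1.54 to 0.17 with a library left out.

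Log2 changes with the opposite sign were, with GC and length offsets, EIF2A 0.24, EIF2S1 0.28, EIF2B1 0.041, EIF3A 0.23, EIF3E 1.06, EIF3G -0.11, EIF3I -0.0069, EIF4A2 0.51, EIF4EBP1 -0.55, EIF4G1 -0.51, ETF1 0.32, EIF6 -0.057, ABCE1 0.014 and LARP1 -0.029. By library totals they were EIF1AX -0.30, EIF1B -0.36, EIF5 -0.12, EIF5B -0.042, EIF2B2 -0.30, EIF2B4 -0.26, EIF3F -0.29, EIF3H -0.099, EIF3I -0.15, EIF3M -0.12, EIF4E2 -0.0064, EIF4G1 -0.31, PABPC1 -0.037, GSPT1 -0.13 and LARP1 -0.14. With no low-count filter they were EIF1AX -0.23, EIF1B -0.29, EIF5 -0.060, EIF2B2 -0.22, EIF2B4 -0.19, EIF3F -0.22, EIF3H -0.030, EIF3I -0.079, EIF3M -0.059, EIF4G1 -0.23, GSPT1 -0.050 and LARP1 -0.069. With upper-quartile scaling they were EIF3A 0.17, EIF3D 0.28, EIF3E 0.22, EEF1D 0.45, EIF5A 0.0020, ETF1 0.091 and MTOR 0.0090, by nuclear totals EIF3D 0.061, EIF3E 0.0010 and EEF1D 0.22, with controls thinned EIF3D 0.070, EIF3E 0.020 and EEF1D 0.30, and at a mean of at least 5 CPM EIF3D 0.0030 and EEF1D 0.17. EEF1D also stood at 0.087 in DESeq2 and 0.086 with its size factors. With 1 library left out the ranges that crossed 0 were EIF1AX -0.11 to 0.26, EIF1B -0.19 to 0.16, EIF2B2 -0.36 to 0.28, EIF2B4 -0.16 to 0.28, EIF3D -0.38 to 0.027, EIF3F -0.11 to 0.24, EIF4A1 -0.12 to 0.92, EIF4G1 -0.079 to 0.59, EEF1D -0.21 to 0.29 and GSPT1 -0.14 to 0.53.

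The replicate numbers shared by the groups were not shown to pair the libraries. The deviations of same-numbered libraries from their group means correlated at 0.00944, 0.0371 and 0.0316, though each of the 6 libraries correlated best with its own number. With the replicate block 20 factors were called, 11 higher and 9 lower, 4404 of all genes, and EEF1D stood at 0.017.

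Depth limits the ZQ side most: 3 counts are 1.22 to 1.45 CPM in a ZQ library, so for EIF4A1 and EEF1G no level could be set, and EEF1D and EIF3C rest on few ZQ reads.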

Other observations

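Some annotated genes that overlap a factor on the same strand held reads of their own. AP002990.1, which covers nearly all of EEF1G, held 0, 2 and 2 counts in ZQ and 29, 57 and 25 counts in control libraries, while EEF1G was listed at 0 throughout. SENP3-EIF4A1 held 1, 8 and 1 counts in ZQ and 0, 0 and 1 counts in control libraries. Together with the counts of EIF4A1 itself, these rows leave both EIF4A1 and EEF1G, which many human cells use at high levels, near the bottom of the list in both groups.

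Of the other translation genes, EEF1A2, the tissue-restricted relative of EEF1A1, was called higher on 5, 5 and 9 counts in ZQ, against 2, 2 and 0 counts in control libraries, and DHPS, the first enzyme of hypusine synthesis on eIF5A, on 3, 5 and 3 counts in ZQ, against 4, 1 and 1 counts in control libraries. They held 3.87 and 3.66 ZQ counts per kb, under the olfactory 99th percentile of 16.0, and passed the filter on low counts in 10 and 8 of 16 alternatives, with a call in 10 and 7 of them. NCBP1, a subunit of the nuclear cap-binding complex, fell with a log2 change of -1.12 ± 0.19, DENR, which acts in reinitiation, with -1.15 ± 0.20, and PAIP2, an inhibitor of poly(A)-binding protein, with -1.21 ± 0.24 (SE, adjusted p by edgeR = 0.0012, 0.0015 and 0.0025). These 3 calls held in 15 of 16 alternatives and ended with offsets, at -0.31, 0.11 and 0.05. EIF4A3, the helicase of the exon junction complex, fell with -0.81 ± 0.16 (SE, adjusted p by edgeR = 0.0024), a call held in 14 of 16 alternatives that ended with offsets (-0.36) and upper-quartile scaling (-0.37). NCBP2, EIF4ENIF1, PABPC1L and ABCF3 were also called, but each lost its call without at least 1 library, with 4, 1, 3 and 3 of 6 such fits calling it. All these genes were chosen for mention after their values were seen.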
